A study of Mus musculus with 2 samples.

Results

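The 9 genes described here encode chains of cytokine receptors and were taken by name from the 35976 gene rows of the plate count tables. They are Il2rg (the common gamma chain), the private chains Il4ra, Il2rb, Il2ra, Il7r and Il21r that can pair with it or join it, Il13ra1 (the second chain of the IL-13 receptor), and the IL-6 receptor pair Il6ra and Il6st. The last 2 genes are not common gamma chain partners and belong to the gp130 family. The cells were OTII CD4 T cells, which carry a transgenic receptor for an ovalbumin peptide, sorted one per well from mouse spleen on day 7 after CAS and second priming (the labels do not spell out CAS). Deleted hosts had the genotype IL13Ra1f/f, CD11cCre/+, so Cre was driven by the CD11c promoter, which is active chiefly, but not solely, in dendritic cells. Control hosts were C57BL/6, so the floxed allele and Cre differed together between the hosts. The deletion concerned host cells and not the transferred T cells, and the study asked how the IL-13 receptor of dendritic cells bears on the development of follicular helper T cells. There was 1 pooled sample from 3 deleted hosts and 1 pooled sample from 2 control hosts, each with 368 cell wells on 4 plates.

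Receptors that use the common gamma chain signal through JAK1 and JAK3 to STAT proteins. IL-4 can act through Il4ra with the gamma chain (the type I receptor) or through Il4ra with Il13ra1 (the type II receptor), and IL-13 acts through the type II receptor alone. Il2rb and the gamma chain form a receptor for IL-2 and IL-15, and Il2ra raises its affinity for IL-2. Il7r carries the survival signal of resting T cells, Il21r receives the follicular helper cytokine IL-21, and IL-6, which favours early follicular helper differentiation, binds Il6ra and signals through Il6st (gp130). Mouse T cells generally lack a functional IL-13 receptor.

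The members share one sequence mark that was not used to choose them. Most class I cytokine receptors carry a box of 5 residues in their outer part, named WSXWS for tryptophan, serine, any residue, tryptophan and serine. In the GENCODE M21 transcripts of GRCm38 (mm10), with all 9 genes matched, the longest coding sequence held this box in 8 genes and lacked it in Il2ra, the chain whose outer part is built from another kind of domain. The coding strand at the box is shown 5′ to 3′ because it is what these chains have in common, with the bases of the box in capitals.
Il4ra: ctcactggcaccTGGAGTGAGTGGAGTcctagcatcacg
Il21r: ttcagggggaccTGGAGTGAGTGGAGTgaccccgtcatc
Il7r: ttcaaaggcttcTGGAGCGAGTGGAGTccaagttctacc
Il13ra1: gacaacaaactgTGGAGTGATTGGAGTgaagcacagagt
Il6st: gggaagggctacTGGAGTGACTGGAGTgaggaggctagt
Il2rg: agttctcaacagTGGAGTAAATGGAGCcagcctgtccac
Il2rb: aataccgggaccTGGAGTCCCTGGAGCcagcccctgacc
Il6ra: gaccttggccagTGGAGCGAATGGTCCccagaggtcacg

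The boxes of Il4ra and Il21r were the same in all 15 bases, and the pair least alike, Il2rb and Il6ra, shared 9 of 15 bases. The box of Il4ra lay in exon 7 of 11 (chr7:125571554-125571568, plus strand) and that of Il21r in exon 6 of 9 (chr7:125628998-125629012, plus strand). The 2 genes are neighbours, with Il21r starting 23955 bases after the end of Il4ra. The box of Il2rg lay in exon 5 of 8 (chrX:101266215-101266229, minus strand), and that of Il13ra1 in exon 8 of 11 (chrX:36149081-36149095, plus strand). The box of Il2rb lay in exon 7 of 10 (chr15:78485763-78485777, minus strand) and that of Il7r in exon 5 of 8 (chr15:9511151-9511165, minus strand). The box of Il6ra lay in exon 6 of 10 (chr3:89885930-89885944, minus strand) and that of Il6st in exon 6 of 15 (chr13:112490597-112490611, plus strand). All 8 are coding exon sequence.

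The deposited counts were used as reads in genes, 542650671 in the deleted pool and 573105030 in the control pool, with medians of 1499762 and 1592794.5 reads per cell. Levels are given as CPM, reads of a gene per 1000000 reads assigned to genes. The sorted cells carried the markers of the label: the 7 CD4 T cell markers with a row summed to 7060 CPM in deleted hosts and 6888 CPM in control hosts, while the 4 B cell markers with a row summed to 4.90 CPM in deleted hosts and 5.01 CPM in control hosts. Cd79a was the highest of the B cell markers at 3.18 and 3.63 CPM, with 2 and 7 positive cells, and Ms4a1 was at 0.0350 and 0.0227 CPM. The 8 dendritic and myeloid markers summed to 139 CPM in each pool (plates 120 to 172 in deleted hosts and 115 to 178 in control hosts). Itgax, Flt3 and Csf1r were at 1.68 CPM or less, Itgam was at 0.601 CPM in deleted and 4.19 CPM in control hosts, and Cst3 was at 70.5 and 80.6 CPM. Cd74 was at 32.1 and 26.3 CPM with overlapping plates, whereas Lyz2 (15.3 and 12.03 CPM) and H2-Aa (16.9 and 13.3 CPM) were higher on every deleted plate than on any control plate. Of all genes at 5 CPM or more in either pool, 4.41% had plates that did not overlap between the pools. These low levels were spread over many wells: Lyz2 was positive in 285 deleted-host and 223 control cells, and H2-Aa in 323 and 262. The part of these markers in the receptor results was not tested. The 5 NK cell markers summed to 119 CPM in deleted hosts (plates 59.8 to 209) and 79.8 CPM in control hosts (plates 55.3 to 113). Among them, Eomes was at 67.0 CPM in deleted hosts (plates 32.7 to 137) and 19.7 CPM in control hosts (plates 12.4 to 24.3). Klrb1c was at 18.5 and 14.7 CPM, Nkg7 at 32.0 and 44.5 CPM, Ncr1 at 0.861 and 0.640 CPM and Klre1 at 0.247 and 0.220 CPM. The sort took propidium iodide negative cells with V beta 5.1-5.2 and CD4, and no marker separating donor from host cells was named. Each group was a single pool (1 sample), which leaves no replicate check and allows no test. Plates are technical splits of a pool, each plate held 1 pool, and so plate and pool cannot be told apart. Intervals cover counting error only. No 2 cell wells held identical counts (0 wells).

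The gamma chain was the one receptor gene read in nearly every cell, and the private chains were each read in a minority. A cell counted as positive for a gene if it had 10 CPM or more there and also reached 5% of the plate's mean level. By that rule Il2rg was positive in 324 of 368 deleted-host cells (88.0%, exact Clopper-Pearson 95% interval 84.3 to 91.2%) and in 329 of 368 control cells (89.4%, 85.8 to 92.4%). Its level was 1506 CPM in deleted hosts (exact Poisson 95% interval 1503 to 1509) and 1584 CPM in control hosts (1581 to 1587), with 1256, 1600, 1625 and 1522 CPM on the 4 deleted plates, against 1778, 1577, 1463 and 1519 CPM on the 4 control plates. The plates of the pools overlapped, and the log2 ratio of deleted over control hosts was -0.07 (1 CPM added to each pool's level). Positive cells of the private chains and of the IL-6 pair made up between 11.96% (Il7r) and 35.3% (Il6st) of the deleted pool, and between 13.04% (Il7r) and 34.8% (Il6st) of the control pool, leaving aside Il13ra1 and Il2ra, which were rare.

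**Figure D1:**
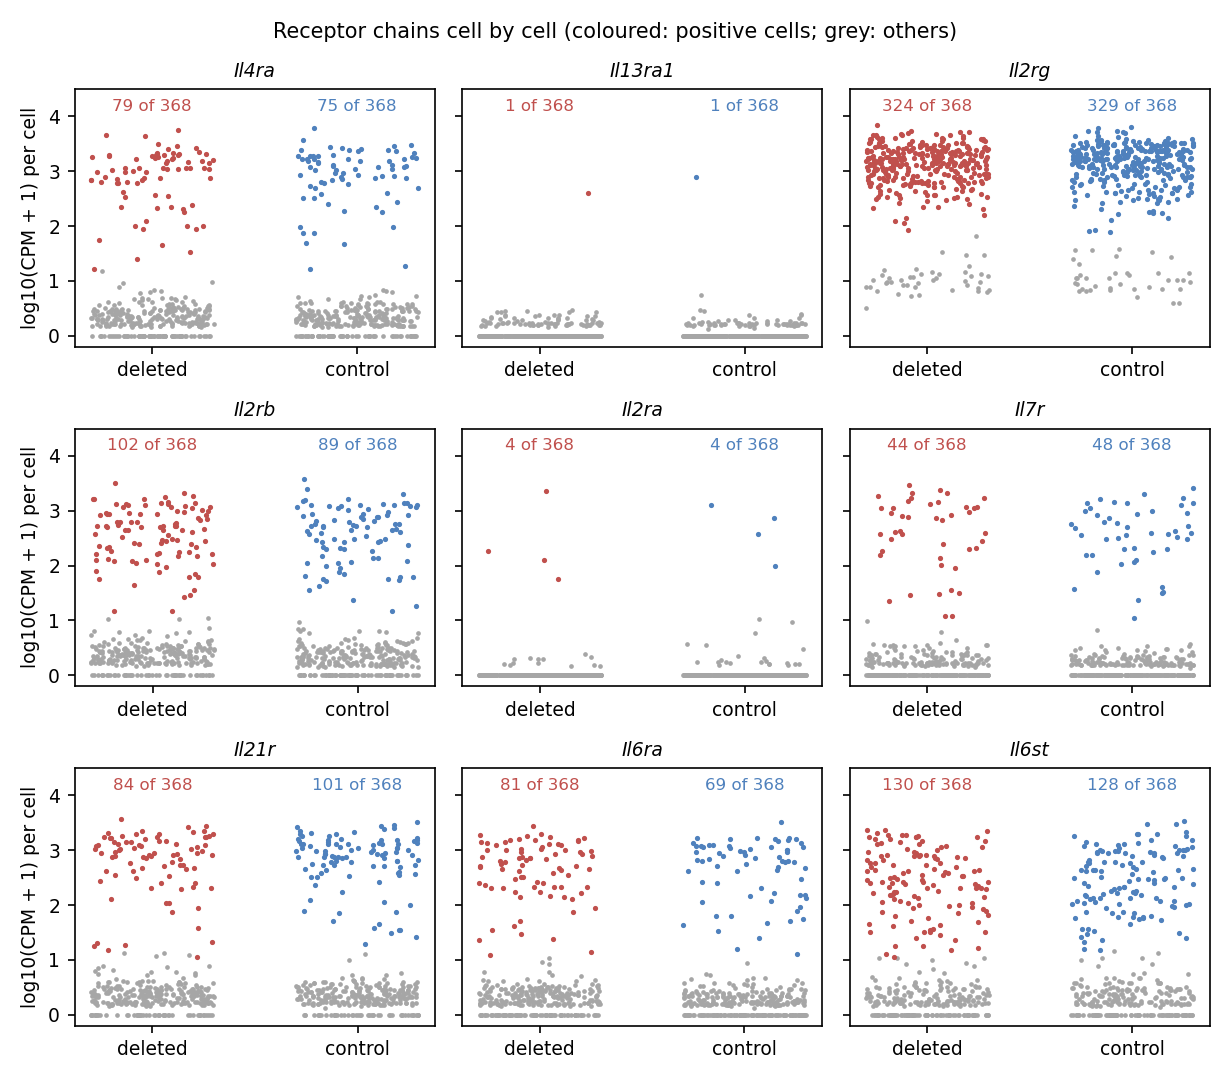
Level of each receptor gene in single cells, as log10(CPM + 1), with deleted-host cells left of control cells and 1 point per cell. Coloured points are positive cells, and the number above each column counts them. Il2rg was positive in 324 of 368 deleted-host and 329 of 368 control cells, whereas the other genes split into a minority at high level and a majority near 0.

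For most members the cells separated into a high and a low set, and the low set was at the level of wells that held no cell. Among cells of 100000 reads or more, those not positive for Il4ra had 1.68 Il4ra reads per cell in deleted hosts and 1.68 in control hosts, while the 9 wells marked noinput or dw had 2.44 reads per well. For Il21r the values were 2.00 reads per negative cell in deleted hosts, 1.91 in control hosts and 2.11 per well without a cell. For Il2rg they were 13.8 reads in deleted hosts, 15.9 in control hosts and 11.9 per well without a cell. These wells held 6698 to 12348 reads, so reads are compared here and not CPM. Positive cells were far above this: the median Il4ra level in positive cells was 1078 CPM in deleted hosts and 1115 CPM in control hosts, and positive cells held 99.6% of all Il4ra reads in deleted hosts and 99.7% in control hosts.

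Levels of different genes are compared per kilobase of exon (GENCODE M21 basic transcripts), because full-length libraries give long transcripts more reads. On this scale Il2rg stood first at 902 CPM per kb in deleted hosts and 948 CPM per kb in control hosts. Il21r followed at 88.7 and 104.9 CPM per kb in deleted and control hosts, then Il4ra at 46.1 and 49.8, Il2rb at 42.9 and 38.1, Il7r at 28.0 and 24.1, Il6st at 17.5 and 17.9 and Il6ra at 18.6 and 15.6 CPM per kb in the same order of pools. Il2ra (1.56 and 1.37 CPM per kb) and Il13ra1 (0.0531 and 0.634 CPM per kb) came last. Over all 8 plates the ranges of neighbours in this order overlapped from Il21r to Il6ra, and again between Il2ra and Il13ra1. The steps without overlap were from Il2rg to Il21r and from Il6ra to Il2ra.

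Between the pools, none of the members above 5 CPM differed by 2-fold. Of the 8 members at 5 CPM or more in either pool, 4 had a log2 ratio above 0 and 4 below, from -0.24 (Il21r) to 0.26 (Il6ra), with a median of 0.07. Over all 9764 genes at that level, 12.7% were at least 2-fold apart (5.98% higher and 6.71% lower in deleted hosts), and the median log2 ratio was -0.04. The plates of the pools overlapped for all 8 (0 members without overlap), against 4.41% of all genes whose plates did not. A share of 0 in 8 genes is near both backgrounds and is not a result about the family.

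**Figure D2:**
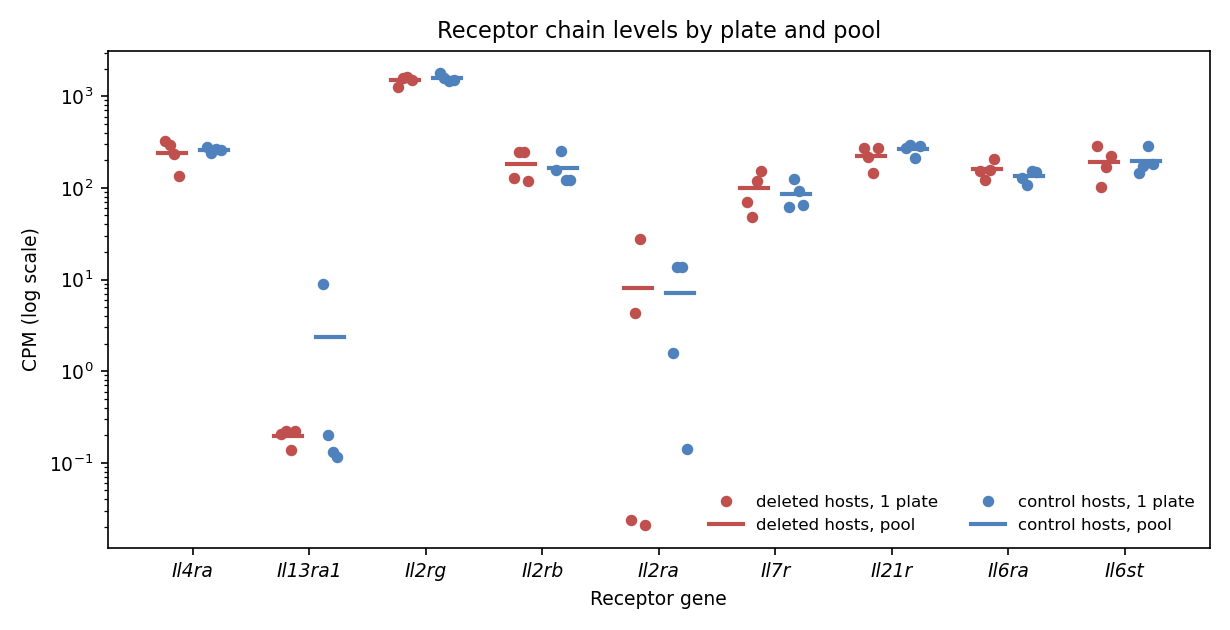
CPM on a log axis for the 9 receptor genes, with deleted hosts left of control hosts. Points are single plates (4 per pool) and bars are pool levels, from 1506 CPM in deleted and 1584 CPM in control hosts for Il2rg down to 0.197 and 2.35 CPM for Il13ra1, where 1 control plate stands above the rest.

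Il4ra, the chain shared by the IL-4 and IL-13 receptors (chromosome 7, 125552120 to 125579474), was at 243 CPM in deleted hosts (Poisson interval 241 to 244) and 262 CPM in control hosts (260.3 to 263). The deleted plates read 322, 292, 233 and 136 CPM, against 281, 243, 266 and 256 CPM on the control plates. The control plates lay inside the range of the deleted plates, whose lowest was deleted plate 4. Positive cells numbered 79 in deleted hosts (21.5%, interval 17.4 to 26.0%) and 75 in control hosts (20.4%, 16.4 to 24.9%), and each plate held 18 to 23 of them in deleted hosts and 17 to 21 in control hosts. The plates thus differed more in the reads of the positive cells than in their number. The log2 ratio was -0.11, or 0.10 with deleted plate 4 left out and 0.04 when every cell had equal weight.

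Il13ra1 (chromosome X, 36112110 to 36171259) had reads at the level of empty wells in nearly all cells. Its level was 0.197 CPM in deleted hosts (Poisson interval 0.162 to 0.238) and 2.35 CPM in control hosts (2.23 to 2.48). It was at 0.208, 0.222, 0.137 and 0.222 CPM on the deleted plates, against 8.93, 0.203, 0.133 and 0.115 CPM on the control plates. The 1 high plate came from 1 cell, which held 94.1% of all Il13ra1 reads of the control pool. Among wells of 100000 reads or more that were not positive, deleted hosts had 103 reads in 366 cells (0.281 per cell, at most 3 in a cell) and control hosts 80 reads in 367 cells (0.218 per cell, at most 3), against 5 reads in the 9 wells without a cell (0.556 per well). The log2 ratio of -1.49 rested on that cell. With the top cell of each pool left out it was 0.062, and with control plate 1 left out 0.059. Il13ra1 was below 5 CPM in both pools and is not among the 8 measured members.

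That Il13ra1-positive control cell had 1269 Il13ra1 reads (772 CPM) and several markers of a CD4 T cell. It read 1754 CPM of Cd4, 743 CPM of Cd3e and 2381 CPM of Lck, while Cd3d, Cd3g, Cd5 and Cd28 were at 4.87 CPM or less. It also had 4449 CPM of Il2rg, 1618 CPM of Il21r and 1.83 CPM of Il4ra. Of the 8 dendritic and myeloid markers, Cst3, which was positive in 173 of the control cells, was at 536 CPM in it and the other 7 were at 21.9 CPM or less, among them Itgax at 1.83, Flt3 at 0.608 and Csf1r at 0.608 CPM. In the deleted pool the 1 well that passed the rule was well A12 of deleted plate 4, with 4 Il13ra1 reads among 9905 reads in all. That total lies inside the range of the wells without a cell, and without wells under 100000 reads (this one and C5 of deleted plate 1, with 71129) 0 deleted-host cells were positive. A count of 0 in these 366 cells allows a share of up to 0.82% (3 counts of the total). Well A12 also counted as positive for Il4ra, Il2rg, Il2rb, Il7r, Il21r and Il6ra, and is kept in their shares.

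The chains of the IL-2 receptor differed widely in how many cells read them. Il2rb (chromosome 15, 78479256 to 78495271) was positive in 102 deleted-host cells (27.7%, interval 23.2 to 32.6%) and 89 control cells (24.2%, 19.9 to 28.9%). Its level was 184 CPM in deleted hosts (Poisson interval 183 to 185) and 163 CPM in control hosts (162 to 164). Its plates read 127, 243, 245 and 119.6 CPM in deleted hosts and 158, 255, 123 and 121 CPM in control hosts. In each pool the plates spanned about the same range, and the log2 ratio was 0.17. Il2rb is also read by NK cells, whose markers summed to 119 CPM in deleted and 79.8 CPM in control hosts. Of these markers, Eomes was higher in deleted hosts (67.0 and 19.7 CPM), whereas Nkg7 was lower (32.0 and 44.5 CPM). The part of NK cells in the Il2rb ratio was not tested.

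Il2ra, the activation-induced alpha chain that also marks regulatory T cells (chromosome 2, 11642807 to 11693193), was positive in 4 cells of each pool (1.09%, interval 0.297 to 2.76%). Its level was 8.12 CPM in deleted hosts (Poisson interval 7.88 to 8.36) and 7.14 CPM in control hosts (6.92 to 7.36). The deleted plates read 0.0240, 4.28, 27.6 and 0.0208 CPM and the control plates 1.58, 13.7, 13.6 and 0.142 CPM. A single cell of deleted plate 3 held 86.6% of the deleted pool's Il2ra reads, and a single cell of control plate 3 held 47.5% of the control pool's. The log2 ratio was 0.16, but -1.74 if deleted plate 3 was left out and -1.18 if the top cell of each pool was. The cell of deleted plate 3, at 2296 CPM of Il2ra, also read 6371 CPM of Foxp3, the transcription factor of regulatory T cells, and 1645 CPM of Il2rb. Of the other regulatory T cell markers listed, Ctla4 was at 232 CPM in it, but Ikzf2 and Tnfrsf18 were at 0.602 CPM each. Of its T cell markers, Cd3g was at 472 CPM, Cd3e at 24.1 CPM, Lck at 18.7 CPM and Cd4 at 3.01 CPM. This cell was the only one of the 8 Il2ra-positive cells that was also Foxp3-positive. Foxp3-positive cells numbered 6 in deleted hosts, of which all 6 were Il2rb-positive and 1 Il2ra-positive, and 8 in control hosts, of which 5 were Il2rb-positive and 0 Il2ra-positive (interval 0 to 36.9%).

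Il7r (chromosome 15, 9505788 to 9530176) was positive in 44 deleted-host cells (11.96%, interval 8.82 to 15.7%) and in 48 control cells (13.04%, 9.78 to 16.9%). Its level was 99.1 CPM in deleted hosts (Poisson interval 98.3 to 99.96) and 85.4 CPM in control hosts (84.6 to 86.2). The deleted plates read 70.5, 47.8, 118 and 154 CPM, against 62.5, 124, 92.4 and 64.5 CPM on the control plates. The deleted plates enclosed the control plates, and the log2 ratio was 0.21, or -0.10 with deleted plate 4 left out.

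Il21r (chromosome 7, 125603429 to 125633570) was positive in 84 deleted-host cells (22.8%, interval 18.6 to 27.5%) and in 101 control cells (27.4%, 22.9 to 32.3%). Its level was 225 CPM in deleted hosts (Poisson interval 224 to 227) and 267 CPM in control hosts (265 to 268). Its deleted plates read 269, 215, 146 and 273 CPM, against 275, 295, 210 and 287 CPM on the control plates. The other control plates lay above all deleted plates while control plate 3 lay below 3 of them, so the pools overlapped, with a log2 ratio of -0.24. Leaving out control plate 3 ended the overlap (log2 ratio -0.34), and leaving out deleted plate 3 brought the log2 ratio to -0.08.

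The IL-6 receptor pair was also at like levels in the pools. Il6ra (chromosome 3, 89864059 to 89913196) was at 161 CPM in deleted hosts (Poisson interval 159.9 to 162) and 135 CPM in control hosts (134 to 136). It read 154, 122, 158 and 207 CPM on the deleted plates and 128, 108, 153 and 148 CPM on the control plates, and was positive in 81 deleted-host cells (22.0%, interval 17.9 to 26.6%) and 69 control cells (18.8%, 14.9 to 23.1%). Only deleted plate 2 lay within the control range, and without it the plates did not overlap (log2 ratio 0.37, against 0.26 with all plates). Il6st (chromosome 13, 112464070 to 112510086) was at 192 CPM in deleted hosts (Poisson interval 191 to 194) and 197 CPM in control hosts (196 to 198). It read 285, 103, 168 and 220 CPM on the deleted plates and 147, 172, 287 and 181 CPM on the control plates, with 130 positive deleted-host cells (35.3%, interval 30.4 to 40.4%) and 128 positive control cells (34.8%, 29.9 to 39.9%). Its log2 ratio was -0.03, the nearest to 0 of the 9 members, and ranged from -0.25 to 0.21 with 1 plate left out.

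Whether both chains of a receptor were read in the same cell was counted next. Cells positive for Il4ra and Il2rg, the type I IL-4 receptor pair, numbered 67 in deleted hosts (18.2%, interval 14.4 to 22.5%) and 66 in control hosts (17.9%, 14.2 to 22.2%). The product of the 2 genes' shares was 18.9% in deleted and 18.2% in control hosts, so the pair was read together about as often as its chains separately would give. The type II pair, Il4ra with Il13ra1, was read in 1 deleted-host well, the shallow well A12 with 1 Il4ra read, and in 0 of 368 control cells, a count under which the share could still be 0.815%. Without that well it was read in 0 cells of either pool.

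The other gamma chain pairs followed the private chain. Il2rb with Il2rg was read in 93 deleted-host cells (25.3%, interval 20.9 to 30.0%) and 80 control cells (21.7%, 17.6 to 26.3%). Il21r with Il2rg was read in 78 deleted-host cells (21.2%, 17.1 to 25.7%) and 94 control cells (25.5%, 21.2 to 30.3%), and Il7r with Il2rg in 40 (10.9%, 7.88 to 14.5%) and 47 (12.8%, 9.54 to 16.6%). The intervals of the pools overlapped for each of these 3 pairs. Without the 2 wells under 100000 reads, the deleted-host counts were 91 for Il2rb, 76 for Il21r and 39 for Il7r with Il2rg. The type I IL-4 receptor pair was then read in 66 deleted-host cells. All 3 chains of the high-affinity IL-2 receptor were read together in 1 deleted-host cell and 2 control cells. Il6ra with Il6st was read in 29 deleted-host cells (7.88%, 5.34 to 11.1%) and 27 control cells (7.34%, 4.89 to 10.5%).

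Il2rg was read at like rates in cells with and without each private chain. It was positive in 84.8% of Il4ra-positive and 88.9% of Il4ra-negative cells of deleted hosts, and in 88.0% and 89.8% of such cells in control hosts. The widest gap was for Il7r in control hosts, where Il2rg was read in 47 of 48 Il7r-positive cells (97.9%, interval 88.9 to 99.9%) and in 88.1% of Il7r-negative cells (84.1 to 91.5%), and in deleted hosts in 90.9% and 87.7%. Il7r-positive control cells also had more genes with at least 5 reads (medians of 1815 and 1536.5), and the part of this was not tested. Il6st was positive in 35.8% of Il6ra-positive and 35.2% of Il6ra-negative deleted-host cells, and in 39.1% and 33.8% of control cells. Most cells positive for Il6ra by this rule thus had no Il6st call at this depth.

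**Figure D3:**
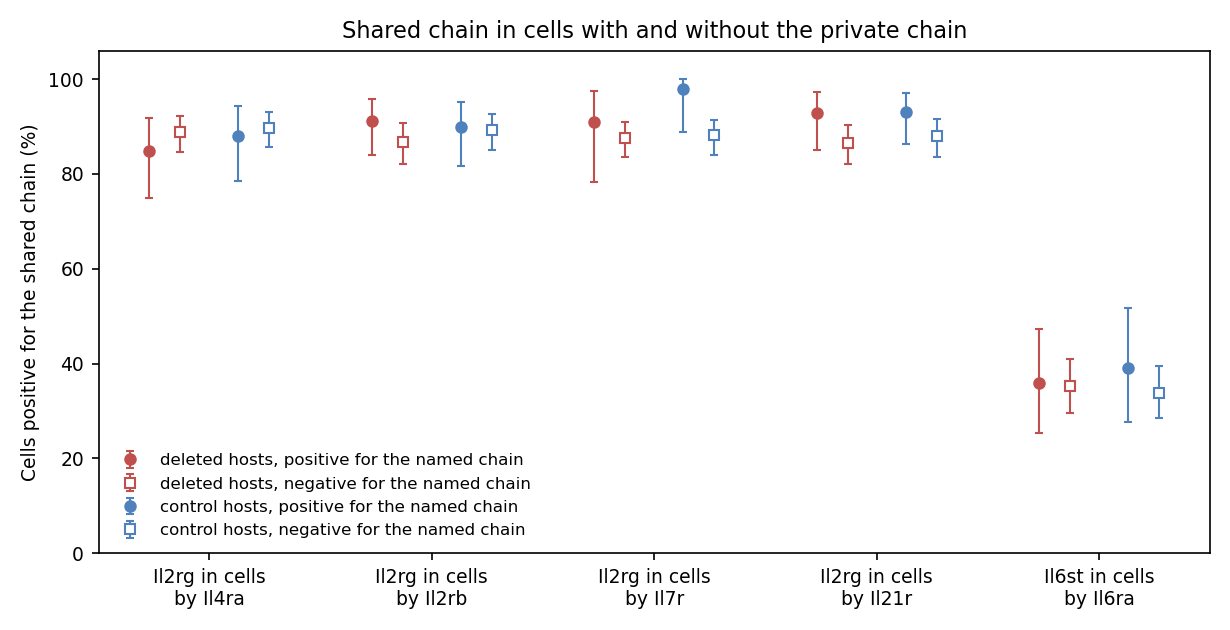
Percent of cells positive for the shared chain, in cells positive (filled) or negative (open) for the private chain, with deleted hosts left of control hosts and exact 95% intervals of counting error. Il2rg lies between 84.8 and 97.9% in all sets, and Il6st between 33.8 and 39.1%.

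Many gamma-positive cells had none of the private chains called. Of the 324 Il2rg-positive deleted-host cells, 126 (38.9%) had none of Il4ra, Il2rb, Il7r and Il21r, 130 had 1 and 68 (20.99%) had 2 or more. Of the 329 Il2rg-positive control cells, 125 (38.0%) had none, 138 had 1 and 66 (20.1%) had 2 or more. These shares count how many of the 4 chains were called, not which ones, and differed between the pools by less than 2 percentage points.

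Some private chains met in the same cells more often than others. Of 36 pairs counted, those given next were picked by their values. Il21r was positive in 31.4% of Il2rb-positive and 19.5% of Il2rb-negative deleted-host cells, and in 40.4% and 23.3% of such control cells. It was also positive in 29.1% of Il4ra-positive and 21.1% of Il4ra-negative deleted-host cells, and in 38.7% and 24.6% of control cells. Il2rb-positive cells had more genes with at least 5 reads than Il2rb-negative cells (medians of 1768 and 1478.5 in deleted hosts, and of 1821 and 1516 in control hosts), and the part of this in the shared calls was not tested. Il4ra-positive cells did not have more (1477 and 1553 in deleted hosts, 1550 and 1585 in control hosts). Among the 21 pairs of the 7 members at 20 CPM or more in both pools, 8 were read together more often than the product of their shares in both pools, 7 less often in both, and 6 in different directions.

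The receptor genes were then set against Cxcr5, the receptor that leads T cells into B cell follicles and marks follicular helper cells. Il2rb was positive in 27 of 57 Cxcr5-positive deleted-host cells (47.4%, interval 34.0 to 61.0%) and 24.1% of the Cxcr5-negative ones, and in 22 of 46 Cxcr5-positive control cells (47.8%, 32.9 to 63.1%) and 20.8% of the Cxcr5-negative ones. The Il2rb share was higher in Cxcr5-positive cells on 3 of 4 deleted plates and 4 of 4 control plates. The shallow well A12 of deleted plate 4 (9905 reads) was 1 of the 57 Cxcr5-positive deleted-host cells. It was called positive on 3 reads of Il2rb, 2 each of Il21r and Il6ra, and 1 each of Il4ra and Il7r. Cxcr5-positive cells also had more genes with at least 5 reads (medians of 1797 and 1507 in deleted hosts, and of 1851 and 1539.5 in control hosts). Among cells with 1500 or more such genes, Il2rb was positive in 55.8% of Cxcr5-positive and 35.4% of Cxcr5-negative deleted-host cells, and in 48.7% and 30.7% of control cells.

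For Il21r and Il6st the shares by Cxcr5 lay close together in deleted hosts and further apart in control hosts. Il21r was positive in 14 of 57 Cxcr5-positive deleted-host cells (24.6%, interval 14.1 to 37.8%) against 22.5% of the Cxcr5-negative ones, and in 22 of 46 Cxcr5-positive control cells (47.8%, 32.9 to 63.1%) against 24.5%. The Il21r share was higher in Cxcr5-positive cells on 3 of 4 deleted plates and 4 of 4 control plates. Il6st was positive in 36.8% and 35.0% of these classes in deleted hosts, and in 52.2% and 32.3% in control hosts. The Il6st share was higher in Cxcr5-positive cells on 2 of 4 deleted plates and 3 of 4 control plates. The check by number of genes that follows was made for Il2rb, Il21r and Il6st only, and was not planned beforehand. Among cells with 1500 or more genes at 5 reads, Il21r was positive in 30.2% of Cxcr5-positive and 23.0% of Cxcr5-negative deleted-host cells, and in 43.6% and 25.5% of control cells. Il6st was then positive in 41.9% and 38.5% of deleted-host and 53.8% and 31.2% of control cells. The gap for Il21r by Cxcr5 was thus 7.25 percentage points in deleted and 18.1 in control hosts in this subset, against 2.05 and 23.3 in all cells. The difference between the pools was not tested, and the intervals of the Cxcr5-positive classes overlapped. Il4ra showed little difference by Cxcr5 in either pool (22.8% and 21.2% in deleted hosts, 21.7% and 20.2% in control hosts), and Il7r was read in 15.8% and 11.3% of deleted-host and 10.9% and 13.4% of control cells. Il6ra was read in 26.3% of Cxcr5-positive and 21.2% of Cxcr5-negative deleted-host cells, higher in the former on 4 of 4 plates. In control hosts Il6ra was read in 15.2% and 19.3%, higher in Cxcr5-positive cells on 1 of 4 plates.

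**Figure D4:**
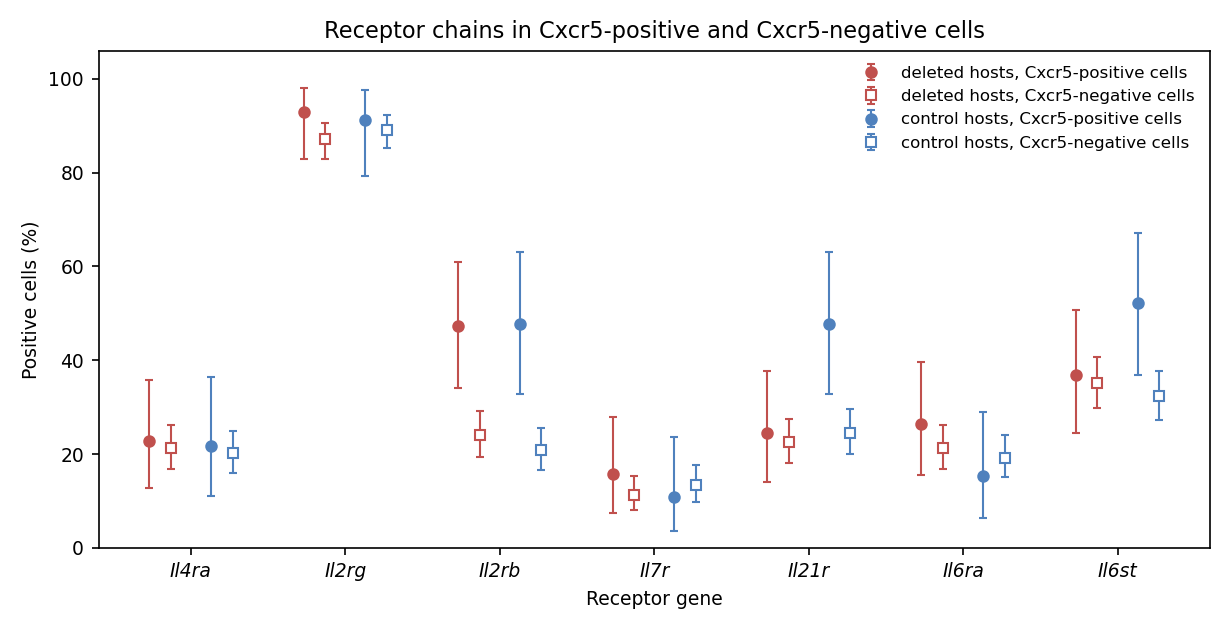
Percent of cells positive for 7 receptor genes in Cxcr5-positive (filled) and Cxcr5-negative (open) cells, with deleted hosts left of control hosts and exact 95% intervals of counting error. Il2rb is at 47.4% and 47.8% in the Cxcr5-positive cells of the deleted and control pools, against 24.1% and 20.8% in the Cxcr5-negative cells.

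By correlation of log2(CPM + 1), centred within each plate, over the 368 cells of each pool, no gene followed closely any of the 7 members at 20 CPM or more in both pools; Il2ra and Il13ra1 were below that level and were not compared. Names were taken by the lower of the 2 pool values among 6149 genes at that level. The closest gene was S100a6, a calcium-binding protein gene of effector and memory T cells, to Il7r (r of 0.21 in deleted and 0.30 in control hosts), followed for Il7r by Ly6a (0.20 and 0.19) and Myo1f (0.16 and 0.18). Il2rb was closest to Ikzf2 (0.18 and 0.22), which encodes the transcription factor Helios, then to Stat4 and Lgals1, and Il4ra to Irf8 (0.22 and 0.13), Als2cl and Sox4. Il2rg was closest to Pfn1, Eif4a1 and Srgn, Il21r to Ugp2, Relb and Psme1, Il6ra to Nkap, Cnot2 and Plrg1, and Il6st to Ephx1, Myb and Uqcrc1. These values are low, the cells of a plate share library and depth, and no p is given.

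The rest of the pathway was listed by role. Of 10 ligand genes, Il21 (6.10 CPM in deleted and 3.75 CPM in control hosts) and Ebi3 (7.62 and 4.84 CPM) reached 5 CPM and lay within 2-fold, Il2 was positive in 4 deleted-host and 3 control cells, and Il13 was positive in 0 cells of either pool. Of 13 other receptor chain genes 9 were measured, with a median log2 ratio of -0.07. Il27ra, which pairs with Il6st for IL-27, was the highest of them at 435 CPM in deleted and 457 CPM in control hosts, ahead of Ifngr1 (197 and 178 CPM), Il10rb (108 and 130 CPM) and Ifngr2 (76.8 and 50.95 CPM). Against 12.7% of all genes, 1 of the 9 was past 2-fold, namely Il9r, a further gamma chain partner, at 8.56 and 1.79 CPM in 6 and 4 positive cells, with a log2 ratio of 1.78, or 0.94 with deleted plate 3 left out. Il13ra2, the decoy receptor of IL-13, had no reads in either pool (0 CPM).

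The kinases and STAT factors that these receptors use were read throughout, and 0 of the 9 measured were past 2-fold (median log2 ratio 0.14), against 12.7% of all genes, and a count of 0 in 9 is near that background. Jak1 was at 1238 CPM in deleted and 1122 CPM in control hosts. Jak3, the partner kinase of the gamma chain, was at 296 CPM (plates 210 to 440) in deleted and 222 CPM (plates 150 to 281) in control hosts. Stat6, which carries the IL-4 and IL-13 signal, was at 394 CPM in deleted and 405 CPM in control hosts, and Stat3, which carries the IL-6 and IL-21 signal, at 325 and 399 CPM. Plates of the pools overlapped for each of these genes.

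Of 9 feedback genes 8 were measured, 2 were past 2-fold and higher in deleted hosts, and 0 were lower, with a median log2 ratio of 0.32, against 5.98% of all genes past 2-fold and higher. Cish, a STAT5 target that dampens cytokine signalling, was at 29.7 CPM in deleted and 8.27 CPM in control hosts, in 11 and 5 positive cells, with overlapping plates. Ptpn11, which encodes the phosphatase SHP2, was at 47.7 and 22.2 CPM with overlapping plates. Without deleted plate 3 both were under 2-fold (log2 ratios of 0.96 for Cish and 0.77 for Ptpn11), and Ptpn11 was also under 2-fold without control plate 3 (0.81) or control plate 4 (0.99). In the other direction, the plates did not overlap for Cish without deleted plate 2 (2.09) or for Ptpn11 without control plate 2 (1.53). Ptpn6 was the most abundant, at 690 and 849 CPM, then Pias1 at 219 and 211 CPM, Socs3 at 104 and 56.8 CPM and Ptpn2 at 94.9 and 88.5 CPM.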

How the data were processed

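The deposited tables of 8 plates hold the authors' raw read counts, whole numbers for each gene in each well. Per the labels' protocols, single cells were lysed on plates, cDNA was primed with oligo(dT), amplified over 25 PCR cycles and cut by Tn5 (SmartSeq2), without named molecular identifiers, so PCR copies count as reads. Per the submitters' processing notes, counting used featureCounts 2.0.1 on mm10. The aligner, the annotation and the strand setting of this step were not given in the sources used here, so reads of overlapping or antisense genes cannot be told apart. From these counts, CPM were computed from reads summed over the cells of a pool or plate, and log2 ratios with 1 CPM added. The 32 control wells entered no comparison, no doublet caller was run on sorted wells, and all cell wells were kept except in the reads per negative cell, which leave out the 2 wells under 100000 reads. With 1 sample per group no test was run between the pools. Members, lists, markers and rules were chosen with earlier results of these data known. The text names all 9 members, in each pathway list the measured genes past 2-fold and the 4 highest, and the 3 genes most like each of the 7 members at 20 CPM or more in both pools. Some genes that this rule would name are not reported here. Alternatives were other scaling, pseudocount, thresholds, thinning to 500000 reads and leaving out cells or plates. The code for the pool ratios was checked on simulated plate counts with planted changes, which held counting noise but not the spread of real plates and cells. The code for ranking like genes was checked by planting a near copy of Il7r. These checks concern the code and do not measure how reliable the values above are. Python 3.11.15, numpy 2.4.6, pandas 2.3.3 and scipy 1.17.1 were used.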

Additional observations from a re-analysis of the deposited data

Results flagged for a closer look

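Plates of a pool were compared with each other for all 9 members in both pools. By Dixon's criterion, 2 plates stood apart from the other 3 of their pool. Chance meets this criterion in about 1 of 20 groups of normally distributed values. Levels set mainly by 1 cell need not have that distribution, so the criterion serves as a flag only. Control plate 1 had 8.93 CPM of Il13ra1, from 1 cell. Deleted plate 3 had 27.6 CPM of Il2ra, also mainly from 1 cell.

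The 23 control wells whose names carry mBM were in no comparison, and in them members were read above the highest of the 9 wells without a cell. Il2rg was above it in 18 wells, Il4ra, Il2rb and Il7r in 15 each, Il6ra in 12, Il2ra in 11, Il21r and Il6st in 9 each, and Il13ra1 in 8. Il13ra1 reached 96.0 CPM in the highest of these wells, but its median over the 23 wells was 0.480 CPM. In shallow wells a high CPM can come from few reads. The part of depth in these counts was not tested (11622 to 2740373 reads per well).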

How the results depend on the processing

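Most values kept their direction or moved by less than the spread between plates. The exceptions are given here. The log2 ratio of Il13ra1 (-1.49) was 0.062 with the top cell of each pool left out and -3.05 with a pseudocount of 0.1 CPM, and ranged from -1.79 to 0.059 (without control plate 1) with 1 plate left out. The number of members past 2-fold (1 of 9, Il13ra1) was 0 when each cell had equal weight. It was 0 to 2 with 1 plate left out (0 without control plate 1, and 2 without deleted plate 3, which adds Il2ra). With the top cell of each pool left out it stayed at 1, but the member was then Il2ra (log2 ratio -1.18) and not Il13ra1. The number of members whose plates did not overlap (0) was 1 without control plate 3 (Il21r) or without deleted plate 2 (Il6ra). Of all genes, 5.91% were past 2-fold with a minimum of 20 CPM. No paired analysis was possible because each group is 1 pooled sample and the results come from no test. Thinning left 364 deleted-host and 366 control cells, and the pair shares of the pools then differed by -4.80 (Il21r with Il2rg) to 2.87 percentage points (Il2rb with Il2rg). Depth limits the reading of negative cells: a cell without a call may hold RNA that was not captured.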

Other observations

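All members were also set against Klf2, a transcription factor of quiescent, recirculating T cells, and against Pdcd1 and Cd69. Only some of these comparisons are given here, and none for Cd69. In deleted hosts Il2rb was positive in 22.7% of Klf2-positive and 42.1% of Klf2-negative cells, and in control hosts in 22.0% and 28.8%. Il4ra was positive in 60 of 273 Klf2-positive and 19 of 95 Klf2-negative deleted-host cells, and in 16.4% and 28.8% of such control cells. Il21r and Il6st were also lower in Klf2-positive control cells. Other members went the other way there: Il6ra was positive in 22.0% and 11.9%, Il2rg in 92.4% and 83.1% and Il7r in 14.8% and 9.32%. In deleted hosts these shares were 20.9% and 25.3% for Il6ra, 87.2% and 90.5% for Il2rg and 12.8% and 9.47% for Il7r. Pdcd1-positive cells, which were 32 in deleted and 31 in control hosts, were Il2rb-positive in 56.2% and 35.5%, against 25.0% and 23.1% of Pdcd1-negative cells, and had more genes with at least 5 reads (medians of 1768 and 1534 in deleted hosts, 1738 and 1560 in control hosts). Klf2-negative deleted-host cells had more genes with at least 5 reads than Klf2-positive ones (medians of 1703 and 1505). Differences between the pools were not tested.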
